A study of Mus musculus with 6 samples.

Results

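The 10 genes described here encode the subunits of the WAVE regulatory complex and its relative N-WASP. They are Cyfip1, Cyfip2, Nckap1, Abi1, Abi2, Brk1, Wasf1, Wasf2, Wasf3 and Wasl, chosen by name out of 12803 genes in the deposited table, and all 10 were listed and had enough signal to be tested. Messenger RNA was sequenced from cultured mouse kidney cells in 6 libraries. KO stands for 3 libraries of a line labelled as podocyte-derived with the genotype Myosin 1e KO, and WT for 3 libraries of the murine podocyte line of Mundel with the genotype label WT. A heterozygous genotype named in the design was not analysed here. Each genotype was 1 cell line, so the genotype and any other difference between the lines cannot be told apart, and the labels do not say how the cultures of a line were kept separate. The p-values therefore measure the spread between these libraries, which may be technical.

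The WAVE complex is a protein assembly that switches on branched actin assembly at the cell edge. CYFIP and NCKAP1 form a large inactive platform that holds the activating tail of a WASF protein, and ABI and BRK1 complete the bundle that WASF sits in. Active Rac binds the CYFIP subunit and frees that tail, which then activates the Arp2/3 complex, the machine that starts a new actin filament on the side of an existing one. N-WASP, the product of Wasl, activates Arp2/3 too, but answers to Cdc42 and to adaptor proteins such as NCK and acts largely at membranes, in endocytosis and in invasive protrusions. In podocytes NCK and N-WASP link the slit-diaphragm protein nephrin to actin. Cyfip, Abi and Wasf each come as a family of paralogs that can take the same place in the complex, so a cell can change the make-up of the complex without changing the total, or the reverse.

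Among the 10 genes Cyfip2 had the largest difference between the lines, and the sequence at its start is shown for that reason beside that of Wasf3, the WASF gene with the lowest level per length in both lines. RefSeq promoter windows on GRCm38.p6 were found for 7 of the 10 genes. Each stretch ends at or just before the start that RefSeq gives, is written 5′ to 3′ on the strand of the gene and leaves out exons that GENCODE M21 gives the gene. Capitals mark CG pairs, the sites of DNA methylation in mammals.
Cyfip2: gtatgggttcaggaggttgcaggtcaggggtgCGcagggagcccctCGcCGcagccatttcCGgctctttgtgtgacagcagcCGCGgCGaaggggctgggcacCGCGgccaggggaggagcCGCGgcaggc
Wasf3: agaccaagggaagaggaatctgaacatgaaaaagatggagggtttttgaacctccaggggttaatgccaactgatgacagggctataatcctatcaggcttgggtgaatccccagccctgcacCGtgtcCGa

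The Cyfip2 stretch lies at chr11:46312359-46312490 on the minus strand and holds 11 CG pairs in 132 bases, with 71.2% G and C. The Wasf3 stretch lies at chr5:146384853-146384984 on the plus strand and holds 2 CG pairs in the same length, with 50% G and C. Over their whole windows of 300 bases Cyfip2 had 29 CG pairs, Wasl 36, Wasf2 29, Brk1 27, Wasf1 17 and Wasf3 5. Abi1 had 12 and 10 in its 2 windows, and the median over all windows was 7. The motif CAGGTG, an E-box letter pattern known to be bound by repressors of the Zeb and Snail families, was searched on both strands. It was found once in the window of Cyfip2 and once in that of Wasf3, not in those of Abi1, Brk1, Wasf1, Wasf2 or Wasl, and in 20.3% of all windows. Both matches lie outside the stretches printed above. The motif TATAAA, on both strands, was in none of these windows and in 13.6% of all windows. The libraries measured RNA, so neither methylation nor binding at these sequences was observed, and reads summed per gene do not say which of the annotated starts of Cyfip2 was used. The Cyfip2 stretch lies inside the GENCODE M21 bounds of the gene given below, which begin further upstream.

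The libraries held between 35447096 and 42106461 reads in the listed genes, and levels are given as CPM (counts-per-million). Myo1e, the targeted gene, was at 18.9, 16.3 and 16.8 CPM in KO libraries and at 184, 180 and 168 CPM in WT libraries, which matches the labels in all 6. As a check of cell type, all 10 simple-epithelium markers were higher in the KO line, with a summed level of 7184 to 7728 CPM in KO libraries and 1.19 to 1.59 CPM in WT libraries, and Cldn3, Cldn7 and Esrp1 had no read in any WT library. Of 10 mesenchymal markers 9 were listed, 8 lower and 1 higher in the KO line, with a sum of 7751 to 13290 CPM in KO libraries and 8165 to 8343 CPM in WT libraries. The sums overlap although most of these markers were lower, so the sum does not stand for the single markers. Of 10 podocyte markers 7 were listed, 2 higher and 4 lower in the KO line, with a sum of 620.3 to 828 CPM in KO libraries and 1209 to 1422 CPM in WT libraries. Nphs1, the nephrin gene, was not listed. Of 10 leukocyte markers only Cd68 and Csf1r were listed, summing to 56.2 to 75.5 CPM in KO libraries and 37.1 to 56.9 CPM in WT libraries, and the pan-leukocyte gene Ptprc was not listed. Of 8 endothelial markers 2 were listed, at a sum of 10.6 to 12.6 CPM in KO libraries and 46.2 to 50.8 CPM in WT libraries, and of 8 neuronal markers 3, at 9.18 to 13.1 CPM in KO libraries and 6.24 to 7.78 CPM in WT libraries.

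Among the WAVE and N-WASP genes, 5 were higher and 2 lower in the KO line and 3 did not pass the test, at an adjusted p under 0.05 (limma on log2 CPM, Benjamini-Hochberg over 12616 genes). Most of the transcriptome differed between these lines, with 68.1% of all genes tested past the same threshold, 34.3% higher and 33.8% lower, so 7 of 10 is close to the background. The groups did not overlap in the same 7 genes, against 73.5% of all genes. Only Cyfip2, 1 of the 10, passed the test with a difference of at least 2-fold, against 27.9% of all genes tested. The median size of the log2 fold change, whatever its sign, was 0.38 over the 10 genes and 0.51 over all genes. In a bulk measurement, fewer cells that make a transcript and less of it per cell cannot be told apart.

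**Figure D1:**
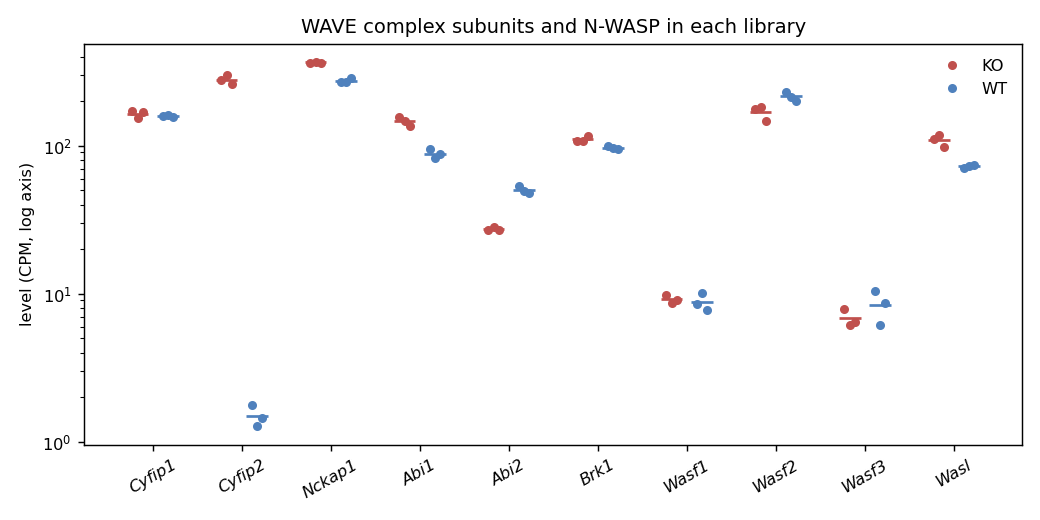
Level of each gene in each library, in CPM on a log axis. Points are libraries (KO left, WT right of each gene name) and lines are group means. Cyfip2 lies between 263 and 300 CPM in KO libraries and between 1.27 and 1.78 CPM in WT libraries, while every other gene lies within a 2-fold difference of group means.

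The largest difference among the 10 genes was in Cyfip2. CYFIP proteins are the Rac-binding subunits of the WAVE complex. Cyfip2 (ENSMUSG00000020340, GRCm38 chr11:46193850-46312859, minus strand) was at 277, 300 and 263 CPM in KO libraries, against 1.78, 1.27 and 1.44 CPM in WT libraries. The WT level rests on 176 reads in all and the KO level on 31658, so the gene was low but detected in each WT library. This is a 185-fold difference, or 7.53 ± 0.14 on the log2 scale (SE, limma, adjusted p = 4.1e-09). A difference of at least this size, in either direction, was found in 217 of the genes tested, or 1.72% of them. The epithelial markers given above moved with Cyfip2, from the same 3 libraries on each side, and their part in its difference was not tested.

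Its paralog Cyfip1 was at nearly the same level in both lines. Cyfip1 (ENSMUSG00000030447, chr7:55841745-55932602, plus strand) was at 172, 153 and 169.9 CPM in KO libraries and at 158, 161 and 156 CPM in WT libraries. The groups overlapped and the test was not passed (log2 fold change 0.05, SE 0.07, limma adjusted p = 0.54). The Cyfip1 exons overlap those of Nipa2, a magnesium transporter gene, on the opposite strand over 11.02% of their length. The strand setting of the counting is not given in the sources used here. Whether reads from this overlap were added to Cyfip1 or left out of it is therefore not known. Nipa2 itself was at 55.7 CPM in KO and 45.4 CPM in WT libraries on average. Reads of Cyfip1 and Cyfip2 themselves can be told apart, since no stretch of 50 bases of the longest transcript of either was found in the other.

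Among the genes whose levels were most like those of Cyfip2 over the 6 libraries were Kcnk1 and Krt20. Kcnk1 encodes a potassium leak channel and Krt20 a keratin of simple epithelia. The likeness was measured as the root mean square difference of log2 CPM, which was 0.23 for Kcnk1 and 0.63 for Krt20. Kcnk1 was at 332 ± 24 CPM in KO and 1.74 ± 0.32 CPM in WT libraries (mean ± SD, n = 3 each). With 2 groups far apart, such likeness reflects the level in each line and says nothing of shared control.

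Nckap1, the partner of CYFIP in the platform, rose modestly in the KO line and with little spread. Nckap1 (ENSMUSG00000027002, chr2:80500512-80581380, minus strand) was at 365, 367 and 364 CPM in KO libraries, against 268, 271 and 287 CPM in WT libraries. The 2 groups did not overlap, and the difference was 0.41 ± 0.07 on the log2 scale (SE, limma, adjusted p = 0.001). The haematopoietic form of this subunit, Nckap1l, was not listed.

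The ABI genes, whose products tie WASF into the complex and recruit the Abl kinases, moved in opposite directions. Abi1 (ENSMUSG00000058835, chr2:22940073-23040241, minus strand) was at 157, 147 and 135 CPM in KO libraries, against 94.9, 82.9 and 87.4 CPM in WT libraries. It rose by 0.73 on the log2 scale with an SE of 0.09 (limma, adjusted p = 0.0001). Abi2 (ENSMUSG00000026782, chr1:60409619-60481158, plus strand) was at 27.1, 28.3 and 26.8 CPM in KO libraries, against 53.2, 49.6 and 47.6 CPM in WT libraries. It fell by 0.87 on the log2 scale with an SE of 0.08 (limma, adjusted p = 2.6e-05), and neither gene's groups overlapped. The Abi1 exons share 4.81% of their length with Pdss1 on the opposite strand, a gene at 4.07 CPM in KO and 6.40 CPM in WT libraries on average. The third family member, Abi3, was not listed.

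Brk1, the smallest subunit, which caps the complex and is needed for its stability, differed little. Brk1 (ENSMUSG00000033940, chr6:113604772-113616951, plus strand) was at 108, 107 and 116 CPM in KO libraries, against 99.7, 96.9 and 94.7 CPM in WT libraries. The groups did not overlap, but the test was passed narrowly (log2 fold change 0.18, SE 0.07, limma adjusted p = 0.045). It was not passed when any 1 of the 6 libraries was left out (limma, adjusted p = 0.054 to 0.13) or in 4 of the other 7 alternatives, so 6 of the 10 genes passed there, 4 higher and 2 lower. Over all 13 alternatives its adjusted p ran between 0.044 and 0.13.

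**Figure D2:**
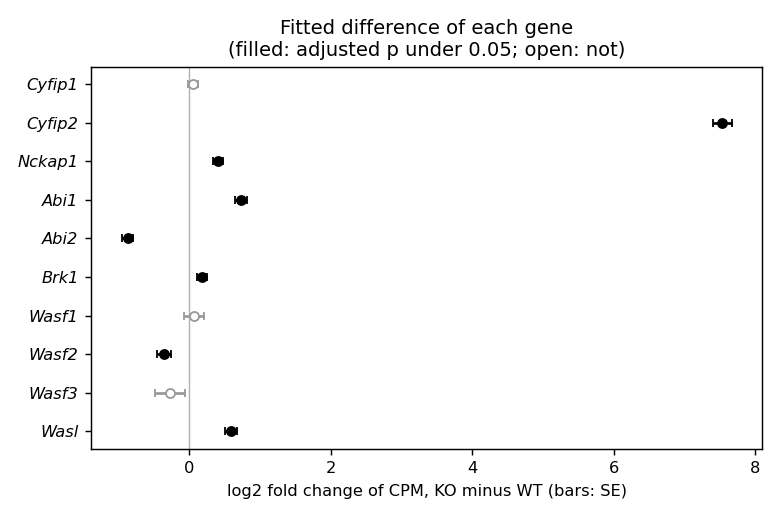
Log2 fold change of CPM, KO minus WT, for each gene on the horizontal axis, with bars of 1 SE from the limma fit. Filled points had an adjusted p under 0.05. Cyfip2 stands at 7.53 and the other 9 genes lie between -0.87 and 0.73.

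The WASF genes encode the WAVE proteins, whose tails activate Arp2/3. Wasf2, the form found in most tissues and needed for lamellipodia, was the only one of the 3 that passed the test. Wasf2 (ENSMUSG00000028868, chr4:133130505-133199756, plus strand) was at 177, 183 and 146 CPM in KO libraries, against 232, 213 and 201 CPM in WT libraries. Each KO library was below each WT library, KO replicate 3 most, and the difference was -0.36 ± 0.10 on the log2 scale (SE, limma, adjusted p = 0.015). Without KO replicate 3 the difference was -0.255 (limma, adjusted p = 0.032). Wasf2 passed in all 13 alternatives, at times narrowly (limma, adjusted p = 0.009 to 0.046).

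Wasf1 and Wasf3, both best known from the brain, were low in both lines and neither passed. Wasf1 (ENSMUSG00000019831, chr10:40883475-40938570, plus strand) was at 9.77, 8.70 and 9.02 CPM in KO libraries and at 8.55, 10.04 and 7.75 CPM in WT libraries. Its difference was 0.07 ± 0.14 on the log2 scale (SE, limma, adjusted p = 0.68). Wasf3 (ENSMUSG00000029636, chr5:146384985-146473615, plus strand) was at 7.83, 6.19 and 6.42 CPM in KO libraries and at 10.4, 6.11 and 8.68 CPM in WT libraries, the widest relative spread of the 10 genes. The WT libraries lie on both sides of the KO libraries, and the difference was -0.27 ± 0.21 on the log2 scale (SE, limma, adjusted p = 0.27). Single WT libraries moved this value, which was -0.10 without WT replicate 1 and -0.49 without WT replicate 2 (limma, adjusted p = 0.66 and 0.051, the highest and the lowest over all 13 alternatives). Between 777 and 1042 reads per group stood behind these Wasf1 and Wasf3 levels.

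Wasl, which encodes N-WASP, rose in the KO line. Wasl (ENSMUSG00000029684, chr6:24613805-24665009, minus strand) was at 112, 119 and 98.2 CPM in KO libraries, against 70.8, 72.9 and 73.8 CPM in WT libraries. The groups did not overlap, and the difference was 0.59 ± 0.09 on the log2 scale, or 1.5-fold (SE, limma, adjusted p = 0.00035). Was, the haematopoietic relative of N-WASP, was not listed.

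Levels of different genes were compared as CPM per kb of exon, with the union of GENCODE M21 exons as length. In KO libraries Brk1 stood highest at 100.7 ± 4.5 CPM per kb, followed by Nckap1 at 73.6 ± 0.26, Cyfip2 at 39.4 ± 2.7, Abi1 at 36.3 ± 2.7, Wasf2 at 27.0 ± 3.2, Wasl at 17.8 ± 1.7 and Cyfip1 at 13.8 ± 0.88 CPM per kb (mean ± SD, n = 3). Abi2 and Wasf1 shared the next place at 3.21 ± 0.088 and 3.21 ± 0.19 CPM per kb, and Wasf3 was lowest at 1.31 ± 0.17 CPM per kb. By exon union, Cyfip2 and Abi1, and Abi2 and Wasf1, did not differ beyond their spread in KO libraries. The tie of Abi2 and Wasf1 depended on the length taken. With the longest transcript, Abi2 was at 4.75 ± 0.13 and Wasf1 at 3.37 ± 0.20 CPM per kb in KO libraries. In WT libraries the order was Brk1 at 88.7 ± 2.3, Nckap1 at 55.5 ± 2.0, Wasf2 at 34.4 ± 2.5, Abi1 at 21.9 ± 1.5, Cyfip1 at 13.3 ± 0.18, Wasl at 11.8 ± 0.25, Abi2 at 5.87 ± 0.33, Wasf1 at 3.08 ± 0.41, Wasf3 at 1.62 ± 0.42 and Cyfip2 at 0.211 ± 0.037 CPM per kb. The place of Cyfip1 also depended on the length taken, since its exon union is 11.9 kb and its longest transcript 6.44 kb. With the longest transcript as length, Cyfip1 was at 25.6 ± 1.6 CPM per kb in KO and 24.6 ± 0.34 CPM per kb in WT libraries, close to Wasl in KO at 25.2 ± 2.4 and to Abi1 in WT at 26.0 ± 1.8 CPM per kb.

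Which paralog supplied the CYFIP transcripts differed between the lines. Cyfip2 made up 73.0%, 76.7% and 72.2% of the CYFIP transcripts per length in KO libraries, against 1.85%, 1.31% and 1.53% in WT libraries. The log2 ratio of Cyfip2 to Cyfip1 was 1.51 ± 0.18 in KO libraries and -5.99 ± 0.26 in WT libraries, a difference of 7.50 with an SE of 0.18. An exact two-sided permutation test over the 6 libraries gave p = 0.1, the smallest that 3 against 3 allow, and 0.133 adjusted over the 4 ratios tested. With the longest transcript as length the Cyfip2 share was 62.1 ± 3.0% in KO and 0.905 ± 0.16% in WT libraries. The ratio's difference does not depend on the length.

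The ABI set shifted towards Abi1 in the KO line. Abi2 supplied 7.55%, 8.33% and 8.55% of the ABI transcripts per length in KO libraries, against 20.9%, 22.0% and 20.4% in WT libraries. The log2 ratio of Abi2 to Abi1 was lower by 1.6 in KO libraries, with an SE of 0.07 and no overlap (exact permutation p = 0.1, adjusted 0.133). Abi1 remained the major form in every library of either line.

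Per length, the WASF genes kept the same order in every library, Wasf2 first and Wasf3 last. Wasf2 supplied 85.2%, 87.3% and 84.1% of the WASF transcripts per length in KO libraries and 88.1%, 87.9% and 88.0% in WT libraries. Wasf1 supplied 10.3 ± 1.2% in KO and 7.88 ± 1.0% in WT libraries, and its log2 ratio to Wasf2 was higher by 0.43 in KO libraries with an SE of 0.15 (exact permutation p = 0.1, adjusted 0.133). The ratio of Wasf3 to Wasf2 differed by 0.08 with an SE of 0.24, less than its spread (exact permutation p = 0.7, also after adjustment). Thus the paralog balance differed by 7.50 log2 units in the CYFIP set, by 1.6 in the ABI set and by at most 0.43 in the WASF set.

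**Figure D3:**
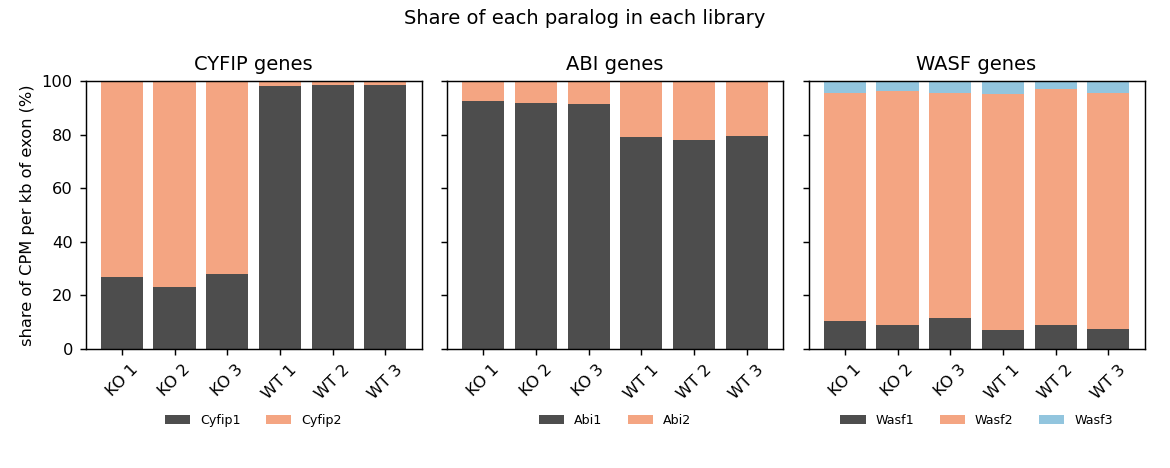
Share of each paralog within its family in each library, as percent of CPM per kb of exon, with KO libraries left of WT libraries. Cyfip2 takes 72.2% to 76.7% of the CYFIP bars in KO libraries and 1.31% to 1.85% in WT libraries, and Wasf2 takes most of every WASF bar.

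Summed over paralogs, the positions of the complex did not move together. The CYFIP sum was 53.3, 55.0 and 51.2 CPM per kb in KO libraries, against 13.5, 13.7 and 13.3 CPM per kb in WT libraries, a log2 difference of 1.98 with an SE of 0.03. The added Cyfip2 transcripts thus stood on top of an almost equal amount of Cyfip1. The ABI sum was 42.1, 39.7 and 36.7 CPM per kb in KO libraries, against 29.8, 26.4 and 27.2 CPM per kb in WT libraries, a log2 difference of 0.51 with an SE of 0.08, since the gain in Abi1 exceeded the loss in Abi2. The WASF sum was lower, at 33.3, 33.5 and 27.7 CPM per kb in KO libraries, against 42.0, 38.8 and 36.4 CPM per kb in WT libraries, a log2 difference of -0.32 with an SE of 0.11. Without KO replicate 3 the difference of the WASF sum was -0.226. None of the 3 sums had overlapping groups, and the exact two-sided permutation test gave p = 0.1 for each, the smallest it allows. The size of the CYFIP difference depended on the length taken and was 1.44 with the longest transcript.

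Relative to Nckap1, which has no paralog in the table, the CYFIP sum was 0.723 ± 0.024 in KO libraries and 0.243 ± 0.011 in WT libraries, per length. With the longest transcript as length this ratio was 0.851 ± 0.018 in KO and 0.415 ± 0.019 in WT libraries. The WASF sum relative to Nckap1, per exon union, was 0.428 ± 0.044 in KO and 0.706 ± 0.074 in WT libraries, and the ABI sum 0.537 ± 0.036 in KO and 0.501 ± 0.043 in WT libraries. These ratios describe transcripts, not the amounts of assembled complex, whose subunits are known to be degraded when they are not assembled. The level of Wasl relative to the WASF sum was 0.544, 0.575 and 0.575 in KO libraries and 0.273, 0.305 and 0.329 in WT libraries, higher in each KO library than in any WT library. With the longest transcript as length the ratio of Wasl to the WASF sum was 0.728 ± 0.023 in KO and 0.389 ± 0.036 in WT libraries.

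**Figure D4:**
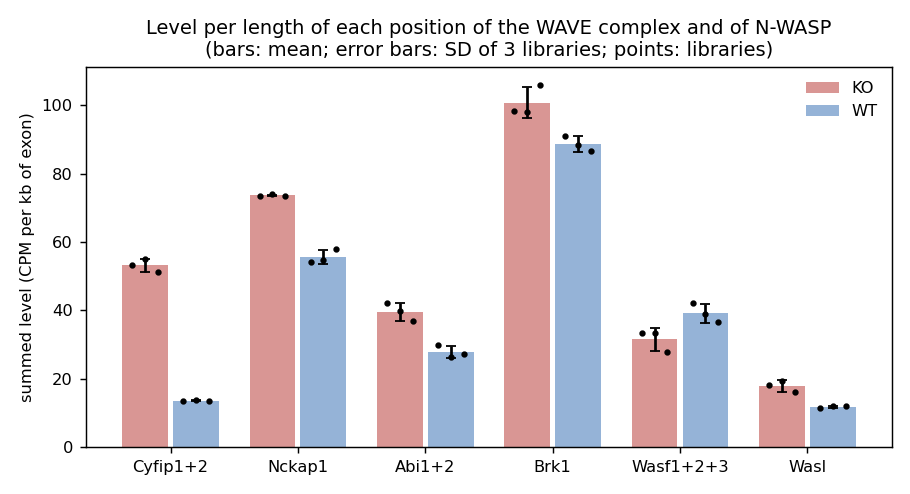
Summed level of each position of the WAVE complex and of N-WASP, in CPM per kb of exon. Bars are means of 3 libraries (KO left, WT right), error bars are SD and points are libraries. The CYFIP position has 53.2 in KO and 13.5 in WT libraries, while the WASF position is lower in KO at 31.5 against 39.1.

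The Arp2/3 complex is the target of both WAVE and N-WASP. Of its 10 genes 8 rose in the KO line, 1 fell and 1 did not pass (limma, adjusted p under 0.05), against 34.3% of all genes tested that were higher and 33.8% that were lower. The list had a median log2 fold change of 0.42, against 0.01 over all genes tested. Actr2, which encodes the ARP2 subunit, was at 514 ± 14 CPM in KO and 222 ± 16 CPM in WT libraries (log2 fold change 1.21). Arpc5 was at 275 ± 19 CPM in KO and 161 ± 4.5 CPM in WT libraries (log2 fold change 0.77). Actr3b, a low-level paralog of the ARP3 gene Actr3, was at 1.95 ± 0.36 CPM in KO and 0.310 ± 0.029 CPM in WT libraries (log2 fold change 2.55). The gene that fell was Arpc1b, at 156 ± 11 CPM in KO and 246 ± 5.9 CPM in WT libraries (log2 fold change -0.66). Its paralog Arpc1a was at 121 ± 12 CPM in KO and 119 ± 10 CPM in WT libraries and did not pass (limma, adjusted p = 0.81). Arpc1a was not among the genes named by the rule given below.

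The next list held other activators of Arp2/3, subunits of the WASH complex and haematopoietic or alternative subunits of the WAVE complex. Of its 8 tested genes 1 rose, 1 fell and 6 did not pass, so that 25.0% passed, against 68.1% of all genes tested, with a median log2 fold change of 0.01, and 4 of the 12 on the list were not in the table. Washc4, a subunit of the endosomal WASH complex, was at 105 ± 4.3 CPM in KO and 66.8 ± 4.2 CPM in WT libraries. Whamm, an activator at the Golgi and on tubular membranes, was at 13.0 ± 0.69 CPM in KO and 17.6 ± 1.2 CPM in WT libraries. Cortactin, encoded by Cttn, which stabilises branches and stands beside N-WASP in invasive protrusions, was at 474 ± 30 CPM in KO and 481 ± 48 CPM in WT libraries (limma, adjusted p = 0.88). Cttn, too, was not named by the rule.

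Genes of proteins that bind or recruit N-WASP were divided in direction. Of 16 tested genes 9 rose, 5 fell and 2 did not pass, so that 87.5% passed, against 68.1% of all genes tested, with a median log2 fold change of 0.38. Pacsin3, a membrane-bending F-BAR protein, was at 88.4 ± 12 CPM in KO and 36.4 ± 7.1 CPM in WT libraries. Its paralog Pacsin2 stood higher in both lines and fell, at 207 ± 12 CPM in KO and 295 ± 15 CPM in WT libraries (limma, adjusted p = 0.00054). The sorting nexin Snx18 was at 297 ± 57 CPM in KO and 154 ± 11 CPM in WT libraries. The intersectins, scaffolds of endocytosis that act with N-WASP and Cdc42, moved apart. Itsn2 was at 188 ± 15 CPM in KO and 100.4 ± 8.1 CPM in WT libraries, and Itsn1 at 54.0 ± 3.5 CPM in KO and 138 ± 19 CPM in WT libraries. The F-BAR gene Fnbp1 fell to 55.6 ± 4.3 CPM in KO, against 110 ± 4.7 CPM in WT libraries, while its relative Fnbp1l, which encodes TOCA-1, was at 228 ± 24 CPM in KO and 135 ± 10 CPM in WT libraries (log2 fold change 0.75, limma adjusted p = 0.0002). Wipf1, which encodes the stabilising partner WIP, fell to 31.6 ± 4.2 CPM in KO, against 46.5 ± 6.0 CPM in WT libraries. Its paralog Wipf2 rose, at 57.9 ± 4.7 CPM in KO and 40.6 ± 1.4 CPM in WT libraries (limma, adjusted p = 0.00087). The nephrin adaptor Nck2 was at 43.1 ± 2.0 CPM in KO and 25.3 ± 3.4 CPM in WT libraries (limma, adjusted p = 0.00035), and Nck1 at 39.1 ± 3.9 CPM in KO and 40.0 ± 0.98 CPM in WT libraries (limma, adjusted p = 0.76). Pacsin2, Fnbp1l, Wipf2, Nck1 and Nck2 were picked out after their values were seen.

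Regulators upstream of WAVE went both ways, and Vav3, Baiap2 and Rac3 rose the most among them. Of 20 tested genes 8 rose, 7 fell and 5 did not pass, so that 75.0% passed, near the 68.1% of all genes tested. Their median log2 fold change was 0.25. Of the 20, 8 passed with a difference of at least 2-fold in either direction, against 27.9% of all genes tested. The Rac exchange factor Vav3 was at 35.8, 32.0 and 28.2 CPM in KO libraries, against 2.51, 2.43 and 2.63 CPM in WT libraries. Tiam1, another Rac exchange factor, went the other way, at 10.9, 12.9 and 7.88 CPM in KO libraries, against 40.4, 36.3 and 41.8 CPM in WT libraries. Baiap2, which encodes IRSp53, a membrane-bending protein that joins Rac to WAVE2, was at 188, 273 and 169 CPM in KO libraries, against 39.2, 35.1 and 41.1 CPM in WT libraries. Rac1 itself was at 304 ± 14 CPM in KO and 374 ± 13 CPM in WT libraries (log2 fold change -0.30, limma adjusted p = 0.0078), and was named after its values were seen. Rac3 was at 8.13 ± 1.1 CPM in KO and 1.97 ± 0.65 CPM in WT libraries, and Rhog at 29.4 ± 1.7 CPM in KO and 39.1 ± 1.7 CPM in WT libraries.

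Nhs, the gene of Nance-Horan syndrome, encodes a protein that binds the WAVE complex and restrains lamellipodia. The 3 KO libraries held 2 Nhs reads together and the 3 WT libraries 2207, or 0.0246, 0.0285 and 0 CPM in KO libraries and 19.6, 17.8 and 19.3 CPM in WT libraries. The ratio of WT to KO was 1072, with an exact 95% interval of 296 to 8856 that covers counting error only. Its paralog Nhsl1 was at 71.6 ± 12 CPM in KO and 40.5 ± 2.8 CPM in WT libraries (log2 fold change 0.81, limma adjusted p = 0.00045), and was named after its values were seen.

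**Figure D5:**
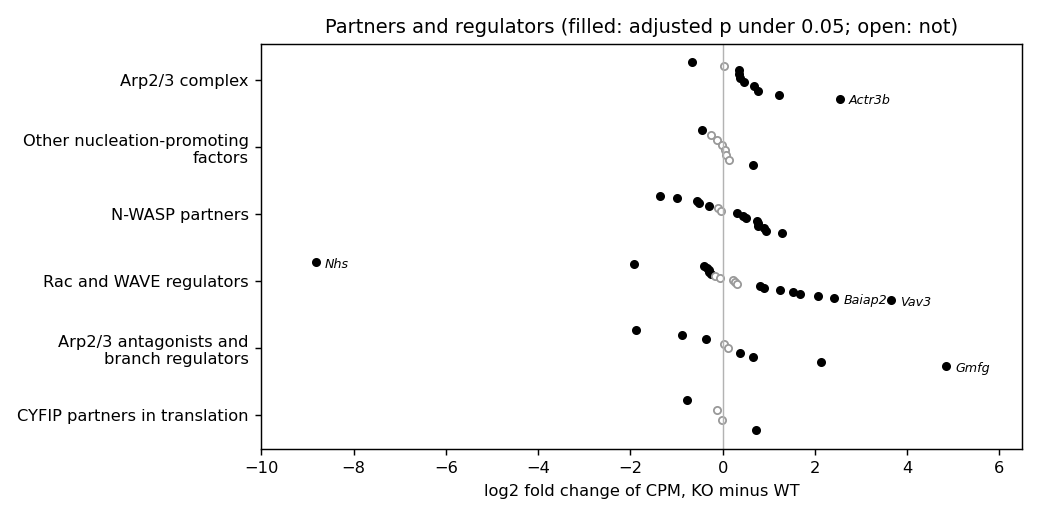
Log2 fold change of CPM, KO minus WT, for each tested gene of 6 lists of partners and regulators. Filled points had an adjusted p under 0.05 in the limma fit. In the Arp2/3 row 8 genes lie to the right and 1 to the left among the filled points, and Nhs stands apart at the far left of the Rac and WAVE row.

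Genes that restrain or remodel Arp2/3 branches were also divided. Of 9 tested genes 4 rose, 3 fell and 2 did not pass, so that 77.8% passed, near the 68.1% of all genes tested, with a median log2 fold change of 0.11. Arpin, which encodes an inhibitor that Rac switches on in opposition to WAVE, was at 34.1 ± 4.3 CPM in KO and 62.5 ± 8.6 CPM in WT libraries. The coronin Coro2a was at 21.6 ± 0.35 CPM in KO and 4.97 ± 1.1 CPM in WT libraries, Coro2b at 1.94 ± 1.2 CPM in KO and 6.15 ± 0.64 CPM in WT libraries, and Coro1b at 175 ± 14 CPM in KO and 225 ± 13 CPM in WT libraries. Pick1, which encodes a protein that can bind Arp2/3, was at 21.2 ± 2.0 CPM in KO and 13.5 ± 0.52 CPM in WT libraries. Gmfg, a debranching factor best known from blood cells, was at 2.68 ± 0.47 CPM in KO and 0.0821 ± 0.073 CPM in WT libraries. The WT level of Gmfg rests on 10 reads in all and the KO level on 305, so the size of its difference is uncertain. Single libraries moved 2 of these values, since the log2 fold change of Coro2b was -1.89 with all libraries and -1.28 without KO replicate 3, and that of Gmfg was 4.84 with all libraries and 5.36 without WT replicate 1, where its WT level was 0.0412 CPM.

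The last list held CYFIP partners in translation, such as the translational repressor FMRP and the cap-binding protein eIF4E. Of its 4 genes 1 rose, 1 fell and 2 did not pass, against 68.1% of all genes tested that passed. Fxr2, a relative of FMRP, was at 185 ± 12 CPM in KO and 111 ± 3.4 CPM in WT libraries and rose by 0.73 on the log2 scale. Fmr1, which encodes FMRP, was at 56.5 ± 8.2 CPM in KO and 97.0 ± 11 CPM in WT libraries and fell by 0.78 on the log2 scale. Fxr1 and Eif4e did not pass (limma, adjusted p = 0.14 and 0.90), and the median log2 fold change of the list was -0.07. Every gene named by rule from these 6 lists passed in all 13 alternatives.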

How the data were processed

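The authors deposited 1 table of log2 CPM with a column for each of the 6 libraries. Per the labels' protocols, 100 ng of total RNA went into Illumina stranded mRNA libraries. Reads were processed, per the submitters' processing notes, with STAR 2.7.3a, Trimmomatic 0.39, edgeR, featureCounts and Subread 1.6.4 on GRCm38. For the annotation, strand setting and low-count filter, the processing is not given in the sources used here.

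The lowest log2 value, -5.26, was shared by all columns. Once this floor was taken off in CPM, each column rose in equal steps of 1 read, with 100% of values on a step within a tolerance of 0.001. Reads were recovered this way, and a prior of 1 read on average was removed from all CPM in the text. Depth was 35447096 to 42106461 reads.

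limma 3.58.1 (R 4.3.3) was fitted across all genes to the deposited log2 CPM, with an intensity trend and no covariates, on 12616 genes with log2 CPM above 0 in at least 3 libraries (187 were not tested). Gene names, lengths and coordinates are from GENCODE M21 (GRCm38), promoter sequences from RefSeq (GRCm38.p6). Paralog ratios and sums were tested by exact permutation over libraries.

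Named from each related list were up to 3 higher and 3 lower genes with the largest change past the threshold, without group overlap and with at least 1 CPM in the higher line. The genes nearest to any member that differed at least 2-fold were named too, except 1 that is not reported here. Members and lists were chosen with earlier results of these data known. Alternatives were the filter, the prior, voom on recovered reads, 2 scalings, no trend, leaving out each library, a replicate block and the gene length.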

Additional observations from a re-analysis of the deposited data

How the results depend on the processing

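Of 309 alternative values for 26 results, 291 were classed as unchanged, 10 lost the threshold and 8 moved by more than the spread between libraries. No result past the threshold changed direction. Fold changes classed as unchanged stayed on their side of the threshold, and shares and sums moved by less than the spread between libraries. Counts of genes were held only to a looser bound on their ratio to the main count. It let the members go from 7 to 6, and the Rac and WAVE regulators from 15 to between 13 and 17. The N-WASP partners went from 14 to between 13 and 15. The list of other activators of Arp2/3 went from 2 to 3 without WT replicate 1. The 10 losses were all of Brk1, and their cause was not tested. Its log2 fold change was 0.18 with voom, without an intensity trend and with the replicate block, and 0.18 with upper-quartile scaling (limma, adjusted p = 0.051, 0.077, 0.077 and 0.055), and 0.15 to 0.20 when each library was left out. The 8 moves came from the gene length. With the longest transcript as length, the share of Cyfip2 differed by 61.2 percentage points between KO and WT, that of Abi2 by -15.1 points, and the CYFIP sum by 1.44 on the log2 scale. With no length these were 62.0 points, -20.4 points and 1.47, the Wasf1 share differed by 1.22 points and the ABI sum by 0.33. The same 3 genes, Cyfip1, Wasf1 and Wasf3, failed the test in all 13 alternatives. Same-numbered KO and WT libraries correlated in their deviations from the group means at 0.101, 0.081 and -0.095, so the numbers were not taken as pairs. With the replicate block 8395 genes passed, against 8590 without, and 6 of the 10 WAVE and N-WASP genes passed. Leaving out a library left between 7573 and 8323 genes past the threshold. With 3 libraries in each line, differences near that of Brk1 sit at the limit of what these data resolve, and the low WT level of Cyfip2 rests on 176 reads.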
